A study of Mus musculus with 3 samples.

Results

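Translation initiation and elongation factors are described here through 65 genes of the mouse, taken from 21901 genes with a protein-coding transcript and 55536 annotated genes in all. The members were chosen by name alone: a symbol starting with Eif or Eef and at least 1 transcript annotated as protein coding. The Eif2ak genes, whose kinases phosphorylate eIF2, were left out. All 3 libraries belong to 1 group. They hold RNA of the cytosolic fraction of macrophages grown from bone marrow of C57BL/6J mice, after 25 minutes with 100 ng/ml of lipid A, the membrane anchor of bacterial endotoxin that is sensed through TLR4. Ribosomal RNA was depleted and 1 µg of RNA entered each library. The labels number the libraries as biological replicates 1 to 3 but list the same donor record for each, and neither age nor sex was collected. Whether they come from separate animals is not stated, so the spread between them may be partly technical. No unstimulated sample, nuclear fraction or later time was analysed here, so every value below is a level in stimulated cytosol or a difference between replicates, and no effect of lipid A can be read from them.

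Total expected counts were 53055764, 43620362 and 38623777 in replicates 1, 2 and 3. The 8 macrophage markers (Csf1r, Adgre1 and Cd68 among them) were all detected, while 0 of 3 T cell, 0 of 3 B cell, 0 of 3 erythroid and 0 of 3 stromal markers were. Of 5 neutrophil markers, 2 were detected, and the list summed to between 25.9 and 43.2 TPM, highest in replicate 2. Levels are given as TPM, counts scaled by transcript length and library. Genes with a protein-coding transcript took 23.2, 23.5 and 30.2% of all TPM in replicates 1, 2 and 3, so nearly every member has its highest TPM in replicate 3. Comparisons between replicates therefore use log2 CPM with TMM scaling, which corrects for such differences in composition. Replicate 2 stood apart in RNAs that are retained in the nucleus: Malat1, Neat1 and Xist summed to 1262 TPM there, against 426 and 415 TPM in replicates 1 and 3.

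Translation starts when eIF2, a GTPase with subunits alpha, beta and gamma, brings the initiator tRNA to the small ribosomal subunit, which eIF3, eIF1 and eIF1A hold ready. The eIF4F complex, made of the cap-binding protein eIF4E, the scaffold eIF4G and the helicase eIF4A, recruits the mRNA, and eIF5 and eIF5B release the factors and join the large subunit. In elongation, eEF1A delivers aminoacyl-tRNAs, the eEF1B subunits recharge it with GTP, and eEF2 moves the ribosome along by a codon. Many mRNAs of this machinery belong to the terminal oligopyrimidine (TOP) class, whose transcripts start with a run of pyrimidines and whose translation is controlled by mTORC1 through LARP1.

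RNA of nearly all of these translation factor genes was detected in the cytosol of these macrophages. Of 65 members, 61 were detected, meaning at 1 TPM or more in all 3 libraries, where 41.5% of all genes with a protein-coding transcript were. Their levels spanned about 3 orders of magnitude: 4 members lay above 100 TPM in every library (Eef1a1, Eef2, Eif1 and Eif4a1), 37, these included, above 10 TPM, and 19 between 1 and 10 TPM in all of them. The median of all members was 18.1 ± 2.96 TPM (SD, n = 3), against 0.17 ± 0.0265 TPM for all genes with a protein-coding transcript. Among detected genes alone the medians were 19.8 ± 3.67 TPM for members and 7.81 ± 1.28 TPM for all. Ribosomal protein genes, which make the particle these factors serve, stood far higher, with a median of 234 ± 63.9 TPM. Together the members held 1.42 ± 0.0254% of the TPM of genes with a protein-coding transcript. Of the TPM of the members, 44.0 ± 0.649% was Eef1a1 alone.

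**Figure D1:**
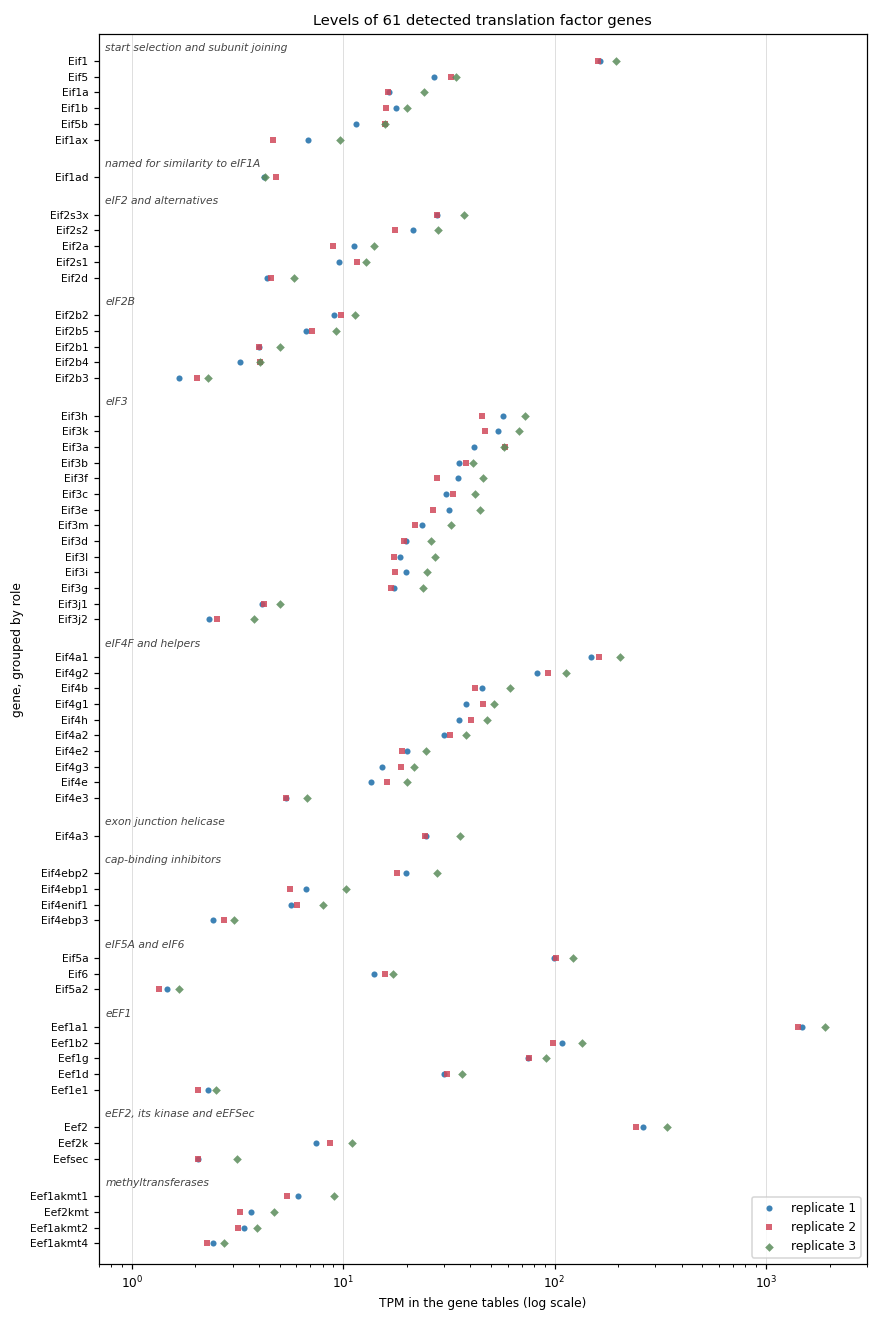
TPM (log axis) of the 61 detected members in each library, grouped by role and ordered by mean within a role; circles, squares and diamonds are replicates 1, 2 and 3. Eef1a1 stands alone between 1413 and 1903 TPM, and several roles cover more than 1 order of magnitude.

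The 4 members that were not detected are related to members that were. Eef1a2, the eEF1A form of neurons and muscle, had 0, 10 and 1 counts. Eif2s3y, the Y-linked copy of the eIF2 gamma gene, Eif4e1b, an eIF4E relative known from oocytes, and the lysine methyltransferase gene Eef1akmt3 had 0 counts in all 3 libraries. A count of 0 allows up to 3 counts, or 0.0566, 0.0689 and 0.0777 CPM (the count relative to library size) in replicates 1, 2 and 3, for counting error only. The alignment-free tables listed Eif4e1b at 0.113, 0.11 and 0.0344 TPM.

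The elongation factors held the highest member of all. Eef1a1 (chromosome 9, 78478449 to 78489151, minus strand, mm10) encodes the eEF1A that carries aminoacyl-tRNAs to the ribosome, and its level was 1487, 1413 and 1903 TPM in replicates 1, 2 and 3. This put it at rank 14 of 21901 genes with a protein-coding transcript. Its most abundant transcript, Eef1a1-201, took 94.0 ± 2.79% of the gene's TPM (SD, n = 3, alignment-free tables). Eef2 (chromosome 10, 81176631 to 81182498, plus strand), the translocase, followed at 263, 244 and 339.5 TPM and rank 109.

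The RNAs of the exchange factor subunits of eEF1A were lower than that of their substrate and did not have equal levels. Eef1b2, the catalytic beta subunit, lay at 107.9, 98.5 and 135 TPM. Eef1g, the gamma scaffold, lay at 75.1, 75.9 and 91.5 TPM, and Eef1d, the delta exchange subunit, at 30.1, 30.9 and 36.6 TPM. The order Eef1a1, Eef1b2, Eef1g, Eef1d, Eef1e1 held in 3 of 3 libraries. Between neighbours, Eef1a1 was 13.8, 14.3 and 14.1 times Eef1b2, and Eef1g was 2.49, 2.45 and 2.50 times Eef1d. Eef1e1, named as an eEF1 subunit but known as an auxiliary protein of the multisynthetase complex, reached only 2.30, 2.05 and 2.51 TPM. Eef1d shares exonic sequence with Naprt on the same strand, a gene of 0.83 to 1.23 TPM, so some of its counts are uncertain.

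The genes that act on elongation factors were far below the factors themselves. Eef2k, the calcium-dependent kinase that inhibits eEF2, was at 7.45, 8.62 and 11.0 TPM. Eefsec, the factor that delivers selenocysteine-tRNA, was at 2.06, 2.05 and 3.15 TPM. The 4 detected methyltransferases of eEF1A and eEF2 had mean levels between 2.47 TPM (Eef1akmt4) and 6.87 TPM (Eef1akmt1), with Eef2kmt at 3.65, 3.24 and 4.69 TPM and Eef1akmt2 at 3.38, 3.19 and 3.91 TPM. Eef1akmt4 overlaps the readthrough gene Gm49333, which had 0 counts.

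Among the initiation factors, Eif1 and Eif4a1 were the highest, and their order changed between libraries, so they cannot be ranked. Eif1 (chromosome 11, 100319885 to 100322096, plus strand), which guards the fidelity of start codon choice, was at 164.7, 160.4 and 195.9 TPM and rank 200. Eif5, the GTPase-activating protein of eIF2 that relaxes this stringency, was at 26.9, 32.4 and 34.1 TPM, so Eif1 was 6.13, 4.95 and 5.74 times Eif5. Eif1a, encoding eIF1A, was at 16.5, 16.3 and 24.0 TPM and Eif1b, the second eIF1 gene, at 17.8, 15.9 and 20.0 TPM. Their order changed between libraries, so these 2 genes cannot be ranked. Eif5b, the GTPase of subunit joining, was at 11.5, 15.8 and 15.7 TPM. Eif1ad, named for its similarity to eIF1A, was at 4.23, 4.83 and 4.27 TPM.

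The RNAs of the 3 subunits of eIF2 were present at unequal levels. Eif2s3x, the gamma GTPase subunit, was highest at 27.9, 27.8 and 37.2 TPM. Eif2s2, the beta subunit, was at 21.3, 17.6 and 28.2 TPM. Eif2s1, the alpha subunit whose phosphorylation shuts off initiation in stress, was lowest of the 3 at 9.58, 11.6 and 12.8 TPM. Eif2a, an alternative carrier of initiator tRNA, lay at 11.3, 8.93 and 14 TPM and could not be ordered against Eif2s1, since replicate 2 reversed them. Eif2d, another alternative, was at 4.35, 4.55 and 5.87 TPM.

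eIF2B, the exchange factor that recharges eIF2, had lower RNA levels than its substrate. The median of its 5 subunit genes was 4.35 ± 0.577 TPM, against 11.4 ± 1.76 TPM for the 6 genes of eIF2 and its alternatives. Those 6 include Eif2a, Eif2d and the undetected Eif2s3y, which are not the substrate measured here. Eif2b2, of the regulatory core, was highest at 9.07, 9.75 and 11.4 TPM. This was only just below Eif2s1, the lowest detected eIF2 subunit gene, at 9.58, 11.6 and 12.8 TPM. Eif2b5, the catalytic epsilon subunit, was at 6.65, 7.10 and 9.20 TPM, Eif2b1 at 4.01, 3.99 and 5.02 TPM, Eif2b4 at 3.26, 4.03 and 4.04 TPM, and Eif2b3 lowest at 1.68, 2.03 and 2.30 TPM. Neighbours held their order in 3 of 3 libraries for 3 of 4 steps, all but that from Eif2b1 to Eif2b4.

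eIF3 is the largest initiation factor, and its 14 genes were all detected, with a median of 29.4 ± 6.55 TPM. Eif3h, Eif3k and Eif3a led, at 57.1, 45.2 and 72.6 TPM, 54.2, 46.8 and 68.2 TPM, and 41.7, 58.4 and 57.6 TPM. These 3 cannot be ranked against each other, because their orders changed between libraries, but Eif3a was above the next gene, Eif3b, in 3 of 3 libraries (1.19, 1.53 and 1.40 times). The lowest of the stable subunits, Eif3g, was at 17.5, 16.8 and 24.0 TPM. The 2 genes of the loosely bound subunit eIF3j were set apart from the rest: Eif3g was 4.23, 3.98 and 4.76 times Eif3j1, which lay at 4.13, 4.21 and 5.03 TPM. Of the 13 steps in the order of eIF3 genes, 6 held in 3 of 3 libraries, so most neighbours did not differ beyond their spread.

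**Figure D2:**
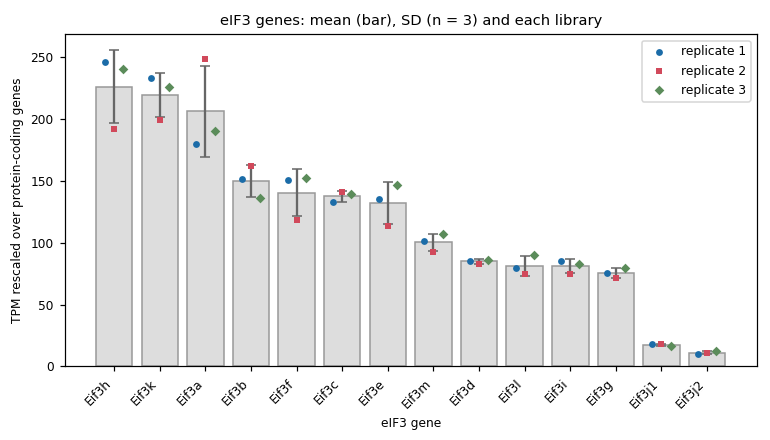
TPM rescaled over genes with a protein-coding transcript for the 14 eIF3 genes; bars are means, error bars SD (n = 3), and points the libraries. On this scale Eif3a and Eif3b peak in replicate 2, as do Eif3c and Eif3j1 by little. Eif3h, Eif3f, Eif3e, Eif3k, Eif3m, Eif3i, Eif3l, Eif3g and Eif3d are lowest there. Eif3j1 and Eif3j2 lie far below the other 12.

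Among the RNAs of the cap-binding complex, that of the helicase was above that of the scaffold, which was above that of the cap-binding protein. Eif4a1 (chromosome 11, 69666936 to 69672423, minus strand), the main eIF4A helicase, was at 149, 162 and 204 TPM. Eif4g2, an eIF4G relative that lacks the eIF4E-binding part, followed at 82.3, 93.0 and 112.9 TPM. Eif4g1, the main scaffold, was at 38.3, 45.7 and 51.7 TPM. Eif4b and Eif4h, both helpers of eIF4A, were at 45.5, 42.2 and 61.7 TPM and at 35.3, 40.2 and 47.9 TPM. Eif4e, the cap-binding protein, was at 13.6, 16.1 and 20.1 TPM, and Eif4e2, a cap-binding relative linked to repression, was above it at 20.0, 19.0 and 24.7 TPM. In the alignment-free tables replicate 2 reversed these 2 genes, with Eif4e at 5.51 and Eif4e2 at 5.31 TPM, so their order is uncertain. Of 10 neighbour steps in this role, 9 held in 3 of 3 libraries. The exception was Eif4b over Eif4g1.

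The inhibitors of eIF4E were led by Eif4ebp2. This 4E-binding protein, which releases eIF4E when mTORC1 phosphorylates it, was at 19.7, 17.98 and 27.9 TPM. Eif4ebp1 was at 6.68, 5.62 and 10.3 TPM, and Eif4enif1, the transporter of eIF4E also found in processing bodies, at 5.69, 6.07 and 8.03 TPM. Eif4ebp3 was at 2.43, 2.74 and 3.06 TPM. It shares exons with the readthrough gene AC115631.1, at 4.39, 4.53 and 6.73 TPM, so its own level is uncertain.

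Of the remaining factors, Eif5a was among the 10 highest members. Eif5a, which carries the amino acid hypusine and eases the ribosome over difficult stretches such as prolines, was at 99.3, 102 and 122 TPM. Eif6, which keeps the ribosomal subunits apart, was at 13.96, 15.8 and 17.2 TPM. Eif4a3, an eIF4A relative that anchors the exon junction complex on spliced mRNA, was at 24.5, 24.5 and 35.6 TPM.

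For some factors with related genes, 1 gene held nearly all of the RNA. In 15 fixed pairs of related genes, the order in the alignment-based tables was the same in all 3 libraries in 15, and the difference was over 4-fold in every library in 7. With 3 libraries of 1 group, an exact sign-flip test cannot go below p = 0.25, so no test is given. Of the 11 counts of Eef1a2, 10 came from replicate 2, so its ratio is given by library. Per length, Eef1a1 was 21200-fold above Eef1a2 in replicate 2 (exact 95% Poisson interval 11500 to 44200, counting error only). In replicate 3, with 1 count of Eef1a2, it was 210000-fold above (37700 to 8300000), and in replicate 1, with 0 counts, at least 95600-fold above, set against a floor of 3 counts. Eif5a was 68.0, 75.6 and 72.7 times Eif5a2, which was at 1.46, 1.35 and 1.68 TPM. In the alignment-based tables Eif2s3x was at least 780-fold above Eif2s3y, and Eif4e at least 305-fold above Eif4e1b, set against a floor of 3 counts per library. The alignment-free tables, which list some RNA for both copies, gave 1260-, 993- and 6840-fold for Eif2s3x, but only 74.1-, 50.1- and 155-fold for Eif4e, so the bound for Eif4e does not hold there. Eif2s3y is Y-linked and sex was not collected, while Xist had 2463, 13159 and 3155 counts in replicates 1, 2 and 3. Whether the cells carry a Y chromosome was not tested, so the Eif2s3x ratio cannot be read as a choice between copies.

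Other pairs were less one-sided. Eif1 was 9.24, 10.1 and 9.81 times Eif1b. Eif4a1 was 5.002, 5.05 and 5.36 times Eif4a2, which at 29.8, 32.0 and 38.0 TPM was itself well expressed. Eif4ebp2 was 8.12, 6.56 and 9.12 times Eif4ebp3. Eif4g1 was 2.44 ± 0.0545 times Eif4g3 (SD, n = 3), Eif4g2 was 2.12 ± 0.0768 times Eif4g1, and Eif4e was 2.83 ± 0.266 times Eif4e3. In 3 pairs the first gene was the lower: Eif4e was 0.779 ± 0.0886 times Eif4e2, Eif4ebp1 was 0.341 ± 0.0292 times Eif4ebp2, and Eif1ax, the X-linked eIF1A gene, was 0.366 ± 0.0697 times Eif1a. In the alignment-free tables the log2 ratio of Eif4e to Eif4e2 was -0.06 in place of -0.36, and replicate 2 reversed the pair, so its order is uncertain. Eif4b was 1.29, 1.05 and 1.29 times Eif4h, close to parity. Eif3j1 was 1.78, 1.66 and 1.33 times Eif3j2, a gene with a single exon, but the alignment-free tables reversed this pair, so its order is uncertain.

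**Figure D3:**
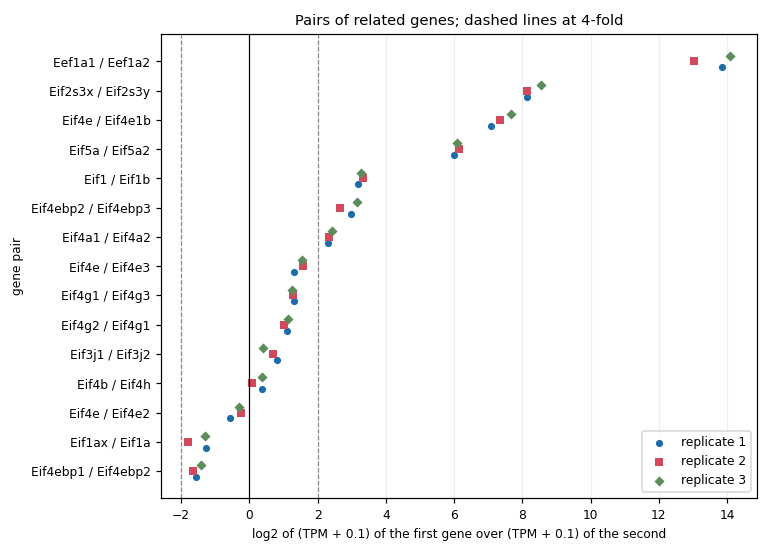
log2 ratio of TPM + 0.1 of the first over the second gene in 15 pairs, with 1 point per library; dashed lines mark 4-fold in either direction. The 7 uppermost pairs lie beyond 4-fold in every library, and the replicates lie close together in nearly all pairs.

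The levels of the members varied little between replicates. At a mean count of 100 or more, 0 of 61 members differed by over 1.5-fold between the highest and the lowest library on the TMM-scaled scale, where 7.76% of 9926 genes did. Those genes were not matched to the members for count. The largest ranges among members were 1.37-fold, in Eif5b, Eif2a, Eef1akmt1 and Eif4ebp1. Over the 3 libraries the SD of log2 CPM had a median of 0.11 in members and 0.10 in all genes of that count. By this measure the typical member varied about as much as the typical gene. Among members it was 0.04 without replicate 2 and 0.10 without either of the others.

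The differences that remained lay mainly in replicate 2. Of 61 members, 31 were lowest in replicate 2, or 50.8%, where 43.9% of all genes of that count were, so the members as a whole lay near the background. A list of 9 members known as TOP mRNAs was taken from general knowledge: Eef1a1, Eef1b2, Eef1d, Eef1g, Eef2, Eif3e, Eif3f, Eif3h and Eif4b. It need not be complete, so the other members may also hold TOP mRNAs. All 9 lay below their own mean in replicate 2, as did 34 of the 52 other members and 54.4% of all genes, and 7 had their lowest value there, the exceptions being Eef1d and Eef1g, which were lowest in replicate 3. Their median deviation in replicate 2 was -0.14 on the log2 scale, against -0.04 for the 52 other members and -0.02 for all genes. Ribosomal protein genes, most of which make TOP mRNAs, were lowest in replicate 2 in 85 of 87 cases, with a median deviation of -0.23. These genes were chosen by symbol. They include Rps19bp1, a gene of a binding protein, at 0.048 in replicate 2. They also include genes with pseudogene names, Rpl10-ps3, Rpl9-ps6 and Rps12-ps3, at -0.608, -0.591 and -0.521. No set test was made, and the list holds few genes.

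Single members show the size of this difference. Eif3f, an eIF3 subunit, had log2 CPM of 7.31, 6.88 and 7.27 in replicates 1, 2 and 3. Eif3h, its partner in the same part of eIF3, had 6.92, 6.49 and 6.87. In both genes replicates 1 and 3 lay together and replicate 2 lay apart, with ranges of 1.35-fold in each. Eef1a1 moved the same way by less, at 12.15, 11.95 and 12.10, and so did Eef2, at 10.54, 10.34 and 10.50. Outside the list, Eif2b2, Eif2a, Eef1akmt1, Eif2s2 and Eif4ebp1 also fell short of their mean by 0.23 to 0.25 in replicate 2.

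Other members had their highest value in replicate 2, among them large factors. There were 13 of 61, all outside the TOP list, where 35.4% of all genes were highest there. Eif5b had log2 CPM of 7.42, 7.76 and 7.31, Eif3a, the largest eIF3 subunit and the base of the complex, 8.65, 8.87 and 8.59, Eif3b, its scaffold partner, 7.29, 7.40 and 7.15, and Eif4g1 8.31, 8.46 and 8.29. Within eIF3, 10 of 14 genes were lowest in replicate 2, and Eif3a and Eif3b were the 2 highest there. The lowering was not limited to the TOP list: of the 11 eIF3 genes outside it, 7 were lowest in replicate 2 and 9 lay below their own mean, with a median deviation of -0.09. Among these, Eif3k deviated by -0.18, Eif3l by -0.17, Eif3m and Eif3i by -0.15 and Eif3g by -0.12, while Eif3c, at 7.53, 7.50 and 7.54, was nearly level.

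**Figure D4:**
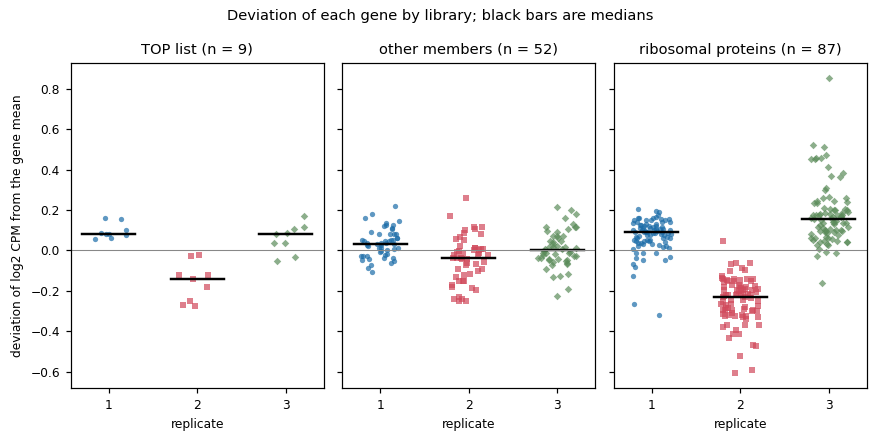
Deviation of log2 CPM from each gene's own mean, by replicate, for the 9 TOP list members, the 52 other members and 87 ribosomal protein genes; black bars are medians. In replicate 2 the medians are -0.14, -0.04 and -0.23, and all 9 TOP list points lie below 0.

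Values that move with this difference were examined beside it. The nuclear RNAs above were highest in replicate 2, Malat1 at 392, 1144 and 374 TPM, and their part in the result was not tested. The neutrophil list also summed highest there, at 25.9, 43.2 and 30 TPM in replicates 1, 2 and 3. Its detected members were S100a8, at 9.60, 14.9 and 12.4 TPM, and S100a9, at 15.9, 27.4 and 17.4 TPM, while Ly6g, Elane and Mpo stayed below 1 TPM, and their part was not tested either. Long genes tended to be higher in replicate 2: across 61 members, the deviation in replicate 2 and log2 gene length had r = 0.34 (Spearman 0.26), and across 9926 genes r = 0.20 (Spearman 0.25). These correlations are across genes of the same libraries, which are not independent replicates. The r for GC content was -0.03 among members. The median length was 1744 bases for the TOP list, 2069 for the other members and 701 for the ribosomal protein genes. With a smooth trend on length removed, 7 of 9 TOP list members were still lowest in replicate 2, while the ribosomal protein genes went from 85 to 65 of 87 and all genes from 43.9 to 39.0%.

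TOP mRNAs are named for the bases at their start, so sequences around annotated starts are shown for the members on which this difference turns. RefSeq promoter entries (GRCm38.p6) matched 49 of 65 members, including 5 of the 9 TOP list genes; Eef1d, Eef1g, Eif3e and Eif3h had none. For those 5 and for the 3 members with the highest deviation in replicate 2, the sequences below run from 8 bases before the annotated start to base 22 of the transcript, 5′ to 3′ on the gene's strand. Capitals mark runs of 8 or more consecutive C or T bases.
Eef1a1 (chr9:78481703-78481732, minus strand): ccgCCCTCTTCCCgagggtgggggagaacg
Eef1b2 (chr1:63176823-63176852, plus strand): gcagttccgccggaagtagccgaggccttg
Eef2 (chr10:81176623-81176652, plus strand): ggccgggcgttgacgtcagcggTCTCTTCC
Eif3f (chr7:108934407-108934436, plus strand): taggCTCTCTCTCTTTCTCggcaagatggc
Eif4b (chr15:102073765-102073794, plus strand): ccgtcggacgccgcgccaccccctcgcgct
Eif5b (chr1:37998002-37998031, plus strand): gggttcccacctggccggcggctctactgg
Eif3a (chr19:60790672-60790701, minus strand): cgggcggcggcgctgccgccgcgagggaat
Eif3b (chr5:140419297-140419326, plus strand): cgcgcggtgacttctgggagtcggaagcag

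Such a run spans the annotated start in Eif3f, where it is 15 bases long, and in Eef1a1, where it is 10 bases long, and lies just downstream of it in Eef2, at 8 bases. Eef1b2 and Eif4b have none in the stretch shown, nor do Eif5b and Eif3b. Eif3a has a run of 13 bases further downstream, from 29 bases after this RefSeq start. The gene annotation used for the levels (GENCODE M21) starts Eif3a at 60790658, inside that run. By that annotation the run of Eif3a also spans the start. Within 50 bases of the start on either side, a run of 8 or more C or T on the transcript's strand was found in 3 of 5 TOP list genes, 21 of 44 other members and 39.3% of 27025 genes in the promoter table. Runs of 8 or more A or G, the same search on the opposite strand, were found in 2 of 5, 11 of 44 and 41.1%. The search is a description of letters around annotated starts, which can differ from the starts used in macrophages.

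Some factor genes put much of their RNA into transcripts that are not annotated as coding. Where a share over all genes is given for a transcript type, the members lay near it. Transcripts of the retained-intron type held 10% or more of the gene's TPM in all 3 libraries in 5 of 61 detected members, where 9.43% of 9089 detected genes did (alignment-free tables), so the members lay near the background. The 5 were Eif1ax, Eif5b, Eif2b2, Eef1e1 and Eef2kmt. In Eif1ax the share was 67.1, 54.1 and 61.9%, all in the short transcript Eif1ax-202 of 416 bases. In Eif2b2 it was 49.9, 54.8 and 35.8%, in Eef1e1 31.3, 31.2 and 32.3%, and in Eef2kmt 24.6, 31.8 and 15.1%.

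Not all of these shares were alike in both kinds of table. Eif5b had 49.3, 55.2 and 42.8% retained-intron TPM in the alignment-free tables, nearly all on Eif5b-202 of 5788 bases, but only 2.61, 8.30 and 3.18% in the alignment-based tables, so its value is uncertain, and the cause of the gap was not tested. The alignment-based tables also gave 5 members, of which Eif1ax, Eif2b2 and Eef1e1 were on both lists, with Eef2k and Eef1g in place of Eef2kmt and Eif5b. Without replicate 3 the alignment-free count was 10 in place of 5, with no share over all genes given for that setting. In 31 of 40 detected members with a share above 0, the share was highest in replicate 2, where 77.4% of 5639 such genes behaved so, so the members did not stand out. The median of the 40 was 0.72, 2.60 and 1.18% in replicates 1, 2 and 3.

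Transcripts annotated as targets of nonsense-mediated decay held 10% or more of the gene's TPM in all 3 libraries of both kinds of table in 3 of 61 detected members, Eif4a2, Eef1b2 and Eef1akmt2. Over all detected genes this share was 4.96%, so the members lay near the background. In Eif4a2 they took 54.6, 53.8 and 59.1% of TPM (alignment-free) and 73.7, 70.6 and 78.8% (alignment-based), mostly on Eif4a2-210 and Eif4a2-204. In Eef1b2 they took 51.0, 52.5 and 43.5% and 45.5, 47.5 and 37.5%, nearly all on Eef1b2-205 of 691 bases, next to the coding Eef1b2-209 of 681 bases. In Eef1akmt2 they took 25.1, 12.3 and 22.3% and 21.01, 14.7 and 24.6%. Eif2a passed in the alignment-based tables alone, at 39.4, 38.3 and 24.1%, against 13.2, 15.6 and 7.39%, and Eefsec in the alignment-free tables alone. The gene levels above therefore include RNA that is not annotated to make the full protein, and the Eif4a1 to Eif4a2 ratio is between genes, not between coding transcripts. In Eif1, the transcript Eif1-202, annotated as processed and 383 bases long, held 43.6 ± 3.58% and 39.4 ± 2.23% (SD, n = 3). Eif4ebp1-202, of the same type, held 49.7 ± 8.79% and 28.5 ± 18.5%.

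**Figure D5:**
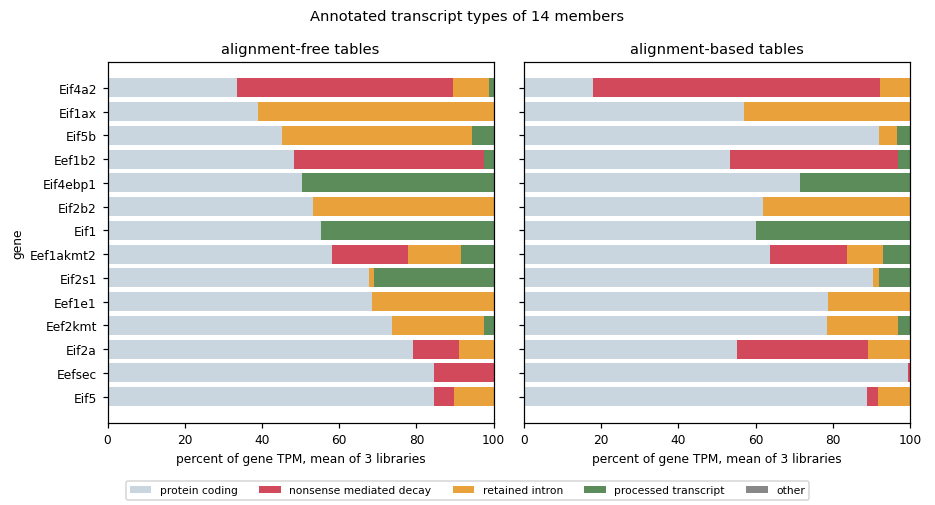
Percent of gene TPM by annotated transcript type, mean of 3 libraries, in the 14 members with 10% or more outside coding transcripts in every library of the alignment-free tables; alignment-based values are on the right. The share of all genes past this threshold is not given. Eif4a2 and Eef1b2 hold large shares of decay-targeted transcripts in both, while the retained-intron share of Eif5b is large only on the left.

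The 2 kinds of table placed the members at nearly the same gene level. On a common scale, 1 of 61 detected members differed by over 2-fold in all 3 libraries, where 0.418% of all detected genes did; a single gene is too few to compare. It was Eif3j2, at 2.40, 2.25 and 2.05 times its alignment-based level, while Eif3j1 was at 0.623, 0.675 and 0.604 times. Eif4a1 has a pseudogene copy, Eif4a-ps4, that received 485, 322 and 629 counts in the alignment-based and 2396, 179 and 1004 in the alignment-free tables, beside 23520, 19493 and 18298 counts of Eif4a1, so a small part of the Eif4a1 signal is uncertain. In all, 20 members overlap an exon of another gene, mostly on the opposite strand. Whether counting used strand is not given in the sources used here.

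Some factor genes carry small nucleolar RNA genes, which guide modification of ribosomal RNA, inside their bounds. Of 65 members 8 do, or 12.3%, where 1.26% of all genes with a protein-coding transcript do: Eef1b2, Eef2, Eif3a, Eif4a1, Eif4a2, Eif4g1, Eif4g2 and Eif5. Eif4a2 holds 5 of these genes and Eif4a1 and Eef1b2 hold 3 each. The counts of the small RNAs were mostly 0. The highest was Gm23262 inside Eif4g2, with 71.8, 182.6 and 99.9 counts, most in replicate 2.

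Genes that act on or beside the factors were looked at from fixed lists. All 6 genes of the eIF2 kinase and phosphatase list were detected. Ppp1r15a, the inducible subunit that directs eIF2 alpha to its phosphatase, was the only one of them over 1.5-fold between replicates, at 185, 106.5 and 369 TPM. The kinases were far lower: Eif2ak2 (PKR) was at 14.01, 13.01 and 19.4 TPM, Eif2ak1 at 6.05, 6.47 and 9.15 TPM, Eif2ak3 (PERK) at 3.22, 3.55 and 4.55 TPM and Eif2ak4 (GCN2) at 2.74, 3.47 and 3.75 TPM. All 10 genes of mTORC1 and MNK signalling were detected, with 0 over 1.5-fold. The 2 kinases of eIF4E led them, Mknk2 at 44.0, 36.5 and 53.2 TPM and Mknk1 at 26.3, 26.8 and 37.3 TPM, above Larp1 at 14.9, 16.9 and 20.0 TPM and Mtor at 3.87, 4.46 and 5.29 TPM.

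Of the 10 genes for poly(A) binding and partners of eIF4G, 9 were detected, all but Mcts2. Pabpc1, the poly(A)-binding protein that bridges to eIF4G, was at 172, 191 and 206 TPM, in the range of Eif4a1. Of 6 termination and recycling genes 5 were detected, all but Gspt2, with Etf1, the release factor, at 21.7, 24.0 and 27.8 TPM and Abce1, which recycles ribosomes, at 9.35, 10.1 and 11.7 TPM. Dhps and Dohh, the enzymes that make the hypusine of eIF5A, were at 8.25, 8.29 and 10.5 TPM and at 9.12, 9.41 and 9.79 TPM, far below Eif5a itself. All 6 mitochondrial translation factors were detected at a median of 5.50 ± 0.97 TPM, led by Tufm, the mitochondrial counterpart of eEF1A, at 10.1, 11.1 and 12.4 TPM. All 4 genes of selenocysteine incorporation besides Eefsec were detected at a median of 3.39 ± 0.421 TPM.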

How the data were processed

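Ribosomal RNA-depleted RNA of 3 libraries was quantified by the authors. Per the file headers, the deposited gene and transcript tables hold expected counts, TPM and the bounds of the TPM interval (unit signal, not used further), in the columns RSEM writes, and the deposited alignment-free tables hold estimated counts and TPM under kallisto's column names; assembly mm10, annotation GENCODE M21. Versions and strand setting: not given in the sources used here.

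The members and lists were chosen with earlier results of these data known. Every member was counted. Named with values were the 4 highest of each role, both genes of 15 pairs, eEF1 and TOP list genes, and members past a threshold or not detected; the other members named were chosen after their values were seen, as were the search for pyrimidine runs, the threshold on decay-targeted transcripts and the count of retained-intron shares highest in replicate 2.

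Expected counts were rounded, filtered with filterByExpr and scaled to log2 CPM (prior count 2, TMM) in edgeR 4.0.16 under R 4.3.3; the common biological coefficient of variation was 15.2% over 12744 genes. Pair ratios used log2(TPM + 0.1), which understates differences of genes near 0. Alternatives used DESeq2 1.42.0 size factors, kallisto values, other thresholds and each replicate left out. Python 3.11.15 with pandas 2.3.3, statsmodels 0.14.6 (lowess fraction 0.3) and matplotlib 3.10.9 did the rest. A single group allows no test between groups. The spread step was tested on simulated data of 12640 genes: 199 of 200 genes given 2-fold passed 1.5-fold, and 2.68% of the others did. Every simulated gene had a coefficient of variation of 0.1, lower than the common value above. The 2.68% therefore need not hold for these libraries, where 7.76% of 9926 genes passed.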

Additional observations from a re-analysis of the deposited data

How the results depend on the processing

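Depth did not limit the 61 detected members, all of a mean count of 100 or more; it limits the 4 others. No paired analysis was possible because there is 1 group. Member detection stayed between 46 (5 TPM) and 61 under every alternative tried, and the pairs over 4-fold stayed at 7 except at the 2-fold threshold, which gave 12. The share of protein-coding TPM was 1.37% with kallisto TPM, 1.37% of expected counts and 0.794% without Eef1a1. The member median was 5.92 TPM with kallisto and 70.7 TPM over genes with a protein-coding transcript, since each scale has another denominator. Members over 1.5-fold between replicates were 1 with no filter on low counts (Eef1a2) and 1 with kallisto counts (Eif4ebp3). The median SD of log2 CPM with a replicate left out ranged from 0.043 (without replicate 2) to 0.1017. Members with a retained-intron share over the threshold were 9 at 5%, 14 with all transcripts that are not protein coding, and 5 to 10 with a replicate left out. The share over all detected genes is not given for these settings. The member over 2-fold between quantifications was lost (0) with counts scaled to the library total. The log2 ratio of Eif3j1 to Eif3j2 turned from 0.64 to -1.07 with kallisto TPM; the cause was not tested. Of the other values of single pairs, 66 stayed within 1 SD and 23 moved further without turning. The 66 include every setting with a replicate left out. Leaving out a replicate cannot shift the mean of a pair by 1 SD of the same values, so those settings do not test the pairs. All 23 that moved came from another constant added to TPM or from kallisto TPM. For TOP list members lowest in replicate 2, the alternatives were chosen after seeing the data. The count was 7 of 9 with DESeq2 factors or the length trend removed, and 9 of 9 with library size alone or kallisto counts. The share over all genes moved too, at 43.8, 39.0, 45.7 and 52.2% in that order, against 43.9% with TMM. Among the 52 other members the counts were 24, 23, 29 and 36, against 24 with TMM.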
